A study of Homo sapiens with 18 samples.

Results

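The alpha-like globin genes HBA1, HBA2, HBM and HBQ1, together with AHSP, which encodes the chaperone of free alpha-globin, were examined as 5 named genes among the 35616 rows of an RNA-seq expression table. They were chosen by symbol. All 5 passed the filter on low values. The RNA came from HUDEP-2 cells, an immortal culture of human red cell progenitors made from umbilical cord cells, either with the HBB gene intact (WT) or with HBB disrupted (HBBko). Cells of each kind were harvested before differentiation, at 48 h and at 5 d, in 3 libraries per group and 18 libraries in all. The number of clones behind the HBBko line and the way its gene was disrupted are not given in the sources used here. The labels do not say that the triplicates were started separately, so p-values measure only the spread between these libraries, which may be technical.

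Haemoglobin pairs alpha-like with beta-like globin chains, and erythroid cells switch both on strongly as they mature. HBA1 and HBA2 encode the same alpha chain, HBZ the embryonic zeta chain, and HBM and HBQ1 the mu and theta globins, whose proteins have no established place in adult haemoglobin. AHSP binds free alpha chains until a beta chain takes them up, and unpaired alpha chains are what damages red cell precursors in beta-thalassaemia, where beta-globin is missing.

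In the RefSeq annotation of GRCh38.p14 the 4 globin genes lay side by side on the plus strand of chromosome 16, in the order HBM at 165978 to 166764, HBA2 at 172876 to 173710, HBA1 at 176680 to 177522 and HBQ1 at 180459 to 181179. HBZ, at 152644 to 154503, began the same cluster. AHSP lay on the plus strand of the same chromosome, far from the cluster, at 31527900 to 31528803. The start of HBA1 was 3804 bases from that of HBA2 and 3779 bases from that of HBQ1.

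The coding sequences show how alike these genes are, so their first 90 bases are shown here, as read from GENCODE release 29 transcripts. Capitals mark bases that, in a pairwise alignment, differ from HBA1 or have no counterpart in it. In that alignment 3 coding positions of HBA1 had no counterpart in HBM. Gaps are not drawn, so the HBM line does not stand base for base under the HBA1 line.
HBA1: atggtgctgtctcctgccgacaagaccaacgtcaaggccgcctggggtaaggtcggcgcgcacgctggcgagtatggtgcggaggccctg
HBA2: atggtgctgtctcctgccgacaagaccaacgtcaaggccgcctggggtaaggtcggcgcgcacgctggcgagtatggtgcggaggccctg
HBQ1: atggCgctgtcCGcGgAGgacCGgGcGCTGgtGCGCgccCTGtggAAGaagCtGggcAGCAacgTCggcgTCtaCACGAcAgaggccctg
HBM: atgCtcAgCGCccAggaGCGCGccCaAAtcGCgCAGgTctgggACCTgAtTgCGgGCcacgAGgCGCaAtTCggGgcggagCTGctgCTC

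No base differed between HBA1 and HBA2 in this stretch, or over their whole coding sequences of 429 bases each. HBQ1 was identical to HBA1 at 73.0% of 429 aligned coding positions and HBM at 62.2% of 426. Of the 547 words of 31 bases in the main HBA1 transcript, 97 occurred in no transcript of another gene and 450 also occurred in HBA2. For HBA2, 96 of 546 words were its own. The split of reads between HBA1 and HBA2 therefore rested on about 17.7% and 17.6% of their words, and each of these genes alone is uncertain where their sum is not. Every word of the HBQ1 and AHSP transcripts was theirs alone. All 476 words of the main HBM transcript were its own as well, but over its 3 annotated transcripts 175 of 679 words were shared with the pseudogene HBZP1.

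HBM was the member with the largest difference between HBBko and WT at 5 d and the only one with a window in the RefSeq promoter table used (GRCh38.p14). HBA1, HBA2, HBQ1 and AHSP were not in it. The window is chr16:165728-166027 on the plus strand, with a GC content of 69.3%. Capitals mark GATAA, the core that GATA factors recognise.
HBM promoter: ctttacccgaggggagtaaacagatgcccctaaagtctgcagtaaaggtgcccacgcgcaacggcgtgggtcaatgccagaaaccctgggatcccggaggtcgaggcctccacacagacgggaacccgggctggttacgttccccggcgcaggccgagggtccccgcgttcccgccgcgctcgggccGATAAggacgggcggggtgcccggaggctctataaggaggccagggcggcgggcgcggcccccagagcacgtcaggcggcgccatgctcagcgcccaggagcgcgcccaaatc

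Both strands were searched for 5 motifs. GATAA occurred 1 time, starting at base -63 from the annotated start, and 22.7% of the 35116 promoter windows hold it. CACCC, the core read by Krueppel-like factors, occurred 1 time, on the minus strand at base -49, and 59.9% of windows hold it. The letters CCAAT were not in this window, and 34.6% of all windows hold them. The same held for ATAAA, which 34.9% hold, and for TGACTCA, which 4.95% hold. A match describes letters only and is no evidence of binding.

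Before the results, the labels and libraries were checked. HBB was lower in every HBBko library than in any WT library of its stage, at 4808 ± 195 against 15782 ± 5710 scaled TPM undifferentiated and 70806 ± 1823 against 439258 ± 16960 at 5 d (SD, n = 3 each). Scaled TPM is TPM, a length-corrected transcript abundance, that had also been rescaled between libraries: library sums ran from 783213 to 1508340. Levels of different genes can therefore be compared, but it carries no read numbers, and the depth is unknown. Replicate 3 of undifferentiated WT stood apart from replicates 1 and 2 for every member and for HBB, and replicate 3 of WT at 48 h was also the highest of its group. All 10 erythroid markers averaged at least 1 scaled TPM in every group. Lymphoid markers summed to at most 0.982, stromal and endothelial markers to at most 0.569 and myeloid markers to at most 3.65 scaled TPM in any library. Among megakaryocyte markers PF4 and PPBP were at 0 throughout, while the list summed to 24.4 to 27.0 in WT and 29.5 to 36.2 in HBBko libraries at 5 d. Mast cell, basophil and eosinophil markers summed to 588 to 796 in WT and 918 to 1053 in HBBko libraries undifferentiated and to at most 39.1 later, with CLC at 0. The part of these lists in the results was not tested. In bulk RNA, fewer cells of a type and less RNA per cell cannot be told apart.

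HBA1 and HBA2, the source of the adult alpha chain, climbed from at most 6245 scaled TPM in undifferentiated cells to places among the 3 most abundant genes of the library at 5 d. HBA1 stood at 3451, 3096 and 6245 scaled TPM in undifferentiated WT replicates 1, 2 and 3 and at 4593, 4401 and 5089 in HBBko. After 48 h its levels were 45717, 45232 and 57938 in WT and 44632, 43866 and 46668 in HBBko. At 5 d they were 161126, 158753 and 164031 in WT and 167689, 170353 and 173586 in HBBko. Within each line no library of one stage overlapped another stage, and the 2 lines overlapped undifferentiated and at 48 h. At 5 d every HBBko library was above every WT library, by little. The share of all genes that separate the lines in this way is not given. Statements on overlap of the lines, here and below, are therefore descriptions only.

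HBA2 followed the same course from a lower start. Its undifferentiated levels were 2435, 2050 and 4263 scaled TPM in WT and 3235, 3097 and 3529 in HBBko. At 48 h they were 36260, 35791 and 47337 in WT and 35757, 34754 and 37599 in HBBko, and at 5 d 145361, 143241 and 151856 in WT and 158141, 159143 and 165665 in HBBko. The lines again overlapped at the first 2 stages and not at 5 d. In WT at 48 h and 5 d HBA1 ranked 2 and HBA2 ranked 3 among all genes of the library, and in HBBko cells they ranked 1 and 2. From undifferentiated to 5 d the group mean rose 37.8-fold for HBA1 and 50.3-fold for HBA2 in WT, and 36.3-fold and 49.0-fold in HBBko.

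**Figure D1:**
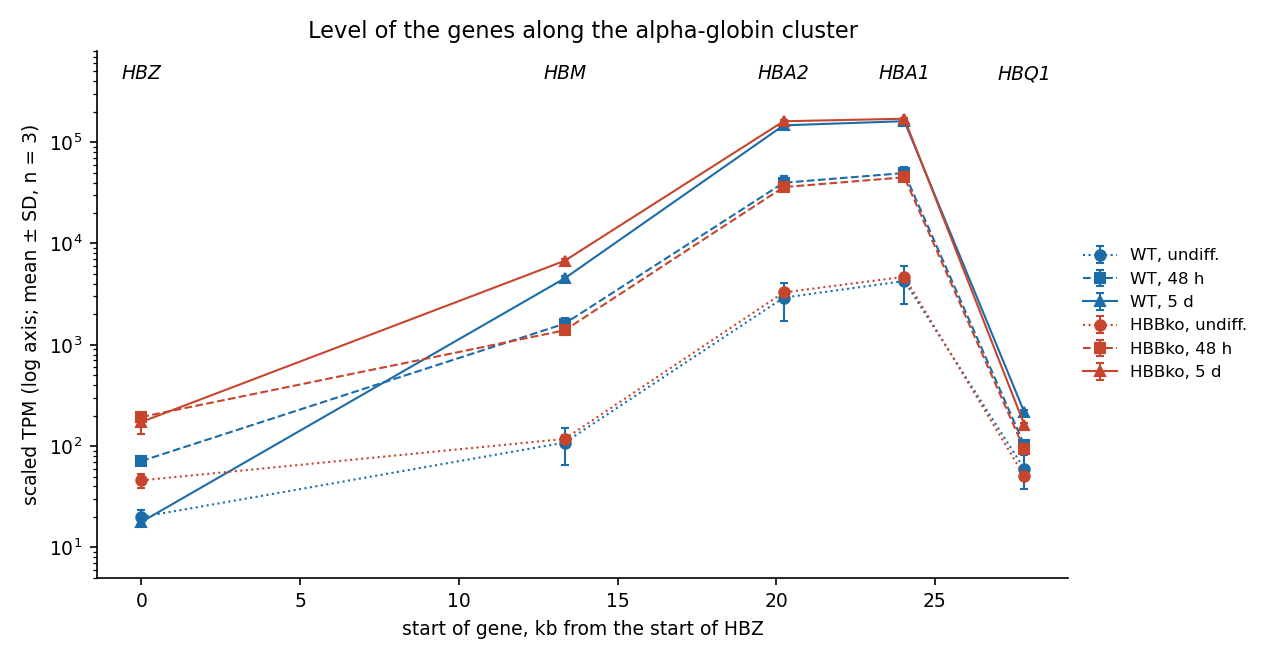
Mean level of HBZ, HBM, HBA2, HBA1 and HBQ1 in each of the 6 groups (scaled TPM on a log axis, bars of 1 SD, n = 3), placed by the distance of each gene's start from that of HBZ in kb, with lines that only join points of a group. HBA1 and HBA2 lie far above the neighbours on either side in all 6 groups, and HBA1 reaches 170543 scaled TPM in HBBko cells at 5 d.

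HBM, the mu-globin gene between HBZ and HBA2, rose about as steeply but from a far lower level. Undifferentiated libraries held 92.2, 74.8 and 158 scaled TPM in WT and 107, 119 and 127 in HBBko. At 48 h HBM stood at 1505, 1481 and 1860 in WT and 1242, 1398 and 1527 in HBBko. At 5 d it stood at 4257, 4813 and 4501 in WT and 6517, 7103 and 6617 in HBBko. The lines overlapped at the first 2 stages, and at 5 d all 3 HBBko libraries were well above all 3 WT libraries. The mean rose 41.8-fold in WT and 57.4-fold in HBBko from undifferentiated to 5 d.

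HBQ1, the theta-globin gene at the far end of the cluster, was the lowest of the 5 at every stage and moved least over the whole course from undifferentiated to 5 d. Its undifferentiated levels were 52.9, 41.5 and 84.2 scaled TPM in WT and 51.7, 45.6 and 54.5 in HBBko. At 48 h they were 100.8, 100.4 and 106.7 in WT and 95.6, 86.9 and 95.9 in HBBko, and at 5 d 204, 221 and 222 in WT and 167, 166 and 155 in HBBko. The lines overlapped undifferentiated, whereas at 48 h and at 5 d every HBBko library lay below every WT library. From undifferentiated to 5 d the mean rose 3.62-fold in WT and 3.21-fold in HBBko.

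AHSP, the chaperone, was already at 833, 911 and 1180 scaled TPM in undifferentiated WT cells and at 838, 878 and 933 in HBBko. At 48 h it was at 2389, 2496 and 2887 in WT and 2350, 2418 and 2473 in HBBko, and at 5 d at 4959, 4954 and 5077 in WT and 5927, 6019 and 6525 in HBBko. The lines overlapped at the first 2 stages and separated at 5 d, with HBBko higher. From undifferentiated to 5 d its mean rose 5.13-fold in WT and 6.97-fold in HBBko. Among all genes of a library at 5 d, AHSP ranked 10 to 11 in WT and 10 to 12 in HBBko, HBM ranked 11 to 13 and 8, and HBQ1 ranked 466 to 525 and 617 to 680.

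Ordered by group mean, each member ran through the stages in time order, and neighbouring groups in that order differed beyond their ranges except the lines of one stage where they overlapped. HBA1, HBA2 and HBM were lowest in undifferentiated WT and highest in HBBko at 5 d. HBQ1 was lowest in undifferentiated HBBko and highest in WT at 5 d. AHSP was lowest in undifferentiated HBBko, at 883 ± 47.5, and highest in HBBko at 5 d, at 6157 ± 322 scaled TPM (SD, n = 3).

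**Figure D2:**
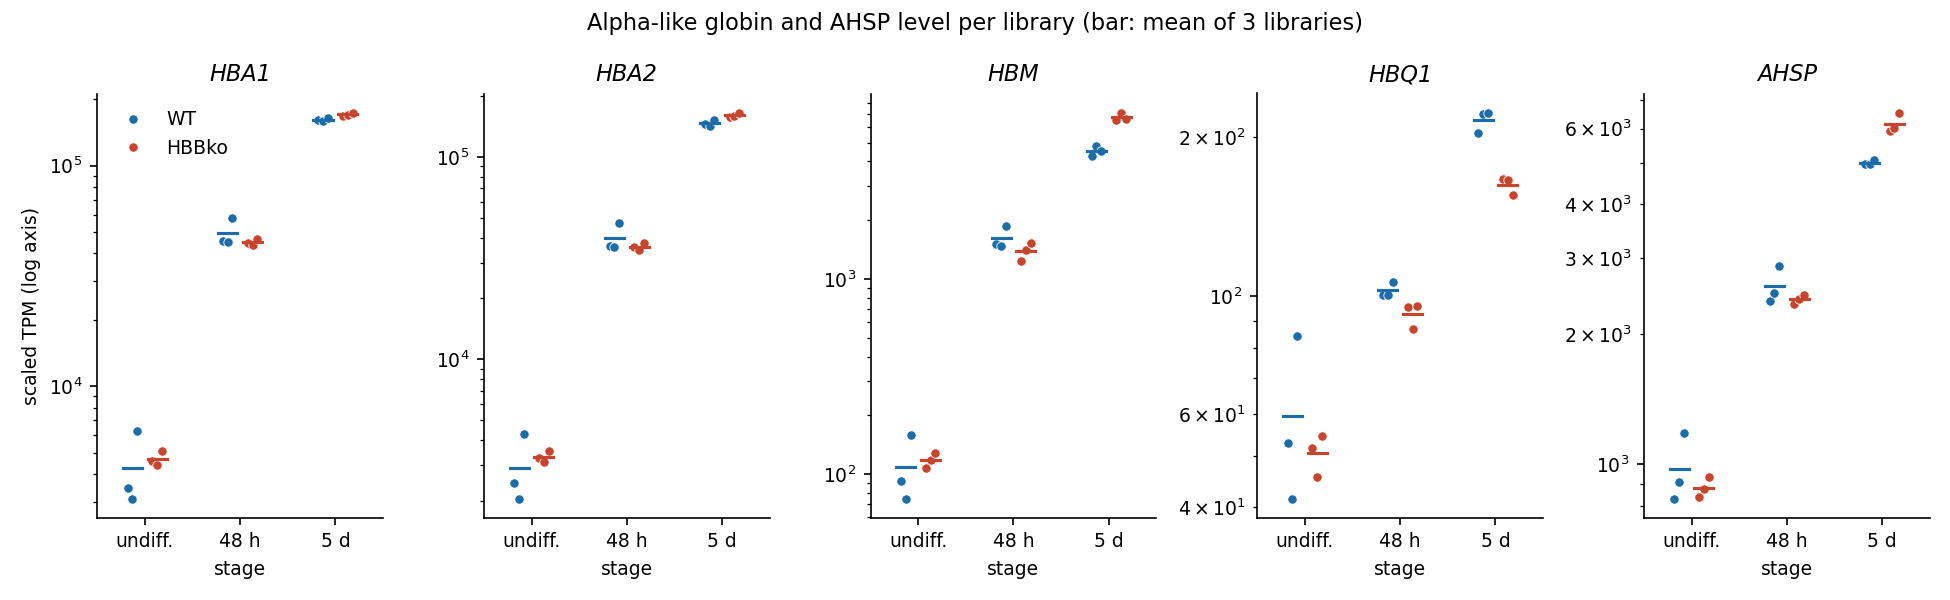
Level of HBA1, HBA2, HBM, HBQ1 and AHSP in each of the 18 libraries (scaled TPM, log axis) by stage, with WT and HBBko libraries as separate points and bars at the group means. At 5 d the HBBko libraries lie above the WT libraries for HBM (6517 to 7103 against 4257 to 4813) and below them for HBQ1 (155 to 167 against 204 to 222).

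Differentiation was compared within each line with limma on log2(scaled TPM + 1), two-sided, with Benjamini-Hochberg adjustment over 12005 tested genes and calls at an adjusted p under 0.05. All 5 members were called higher in all 6 stage comparisons. The share of all tested genes called higher was 23.5% in WT and 25.1% in HBBko for 48 h against undifferentiated, 30.8% and 30.2% for 5 d against 48 h, and 30% and 31.4% for 5 d against undifferentiated. The split of all calls moved with scaling: in these 6 comparisons 35.0% to 38.5% of calls were higher with values as deposited, 13.7% to 29.04% after rescaling to equal sums, 40.0% to 47.3% after rescaling to equal sums of genes that are no globin and 45.5% to 51.2% after median-of-ratios scaling. Rescaling to equal sums moved the median of all genes from between -0.36 and -0.09 to between -1.06 and -0.19 on the log2 scale. Under it all 5 members stayed called higher, and relative to that median the smallest change was 0.92, for HBQ1. The other scalings also left all 5 called.

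On the log2 scale the first 48 h carried the greater part of the rise of HBA1, HBA2 and HBM in WT, whereas in scaled TPM more was added between 48 h and 5 d. Their log2 changes from undifferentiated were 3.60 (SE 0.18), 3.83 (SE 0.18) and 3.95 (SE 0.18), and from 48 h to 5 d they were 1.71, 1.90 and 1.49 with the same errors. HBQ1 rose by 0.84 and then 1.06 (SE 0.16 each), and AHSP by 1.42 and then 0.95 (SE 0.10 each). In HBBko the first step was 3.26 for HBA1, 3.46 for HBA2, 3.55 for HBM, 0.86 for HBQ1 and 1.45 for AHSP. The step from 48 h to 5 d in HBBko was 1.92, 2.16, 2.28, 0.80 and 1.35 in the same gene order. In limma's fit the largest adjusted p of these values was 1.6e-04, for HBQ1 in WT from undifferentiated to 48 h. Leaving out any single library kept all 5 calls in all 6 comparisons.

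**Figure D3:**
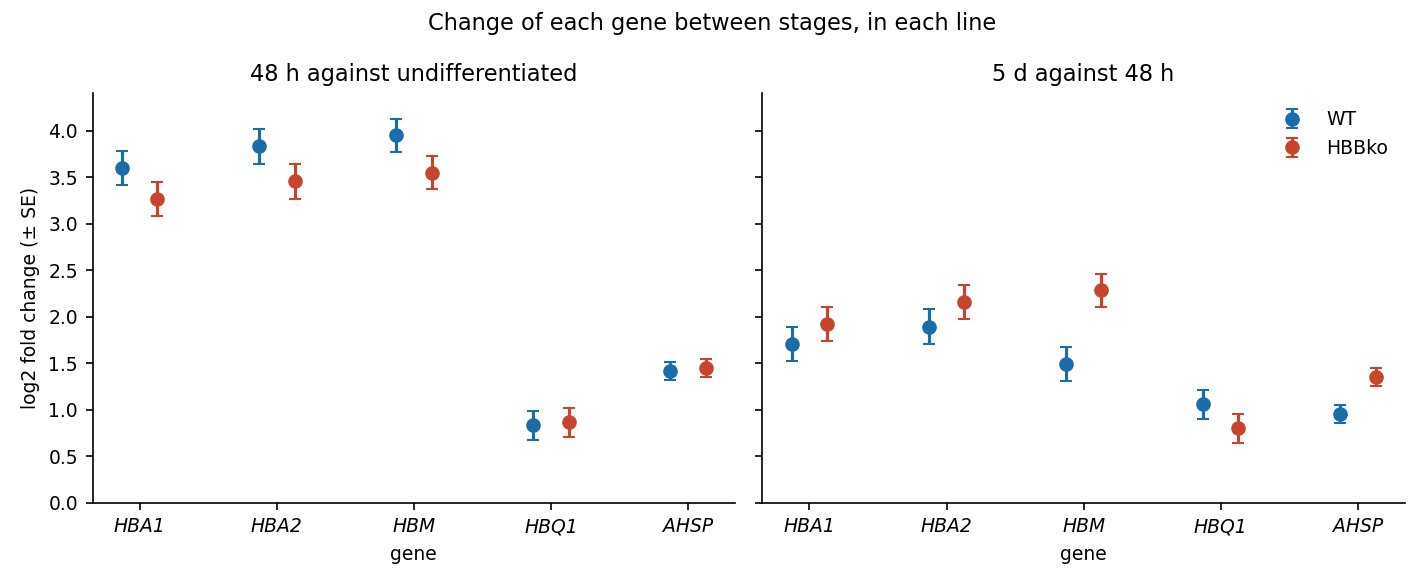
Log2 change of HBA1, HBA2, HBM, HBQ1 and AHSP from undifferentiated to 48 h and from 48 h to 5 d in WT and HBBko, with bars of 1 standard error from limma's fit of log2(scaled TPM + 1). The first step was 3.26 to 3.95 for HBA1, HBA2 and HBM and 0.84 to 1.45 for HBQ1 and AHSP.

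The HBBko line was compared with WT at each stage in the same fit. In undifferentiated cells none of the 5 members was called, beside 43.3% of all tested genes called in either direction. The log2 differences, HBBko minus WT, were 0.21 (SE 0.18) for HBA1, 0.24 (SE 0.18) for HBA2, 0.19 (SE 0.18) for HBM, -0.17 (SE 0.16) for HBQ1 and -0.13 (SE 0.10) for AHSP. No member had an unadjusted p under 0.05 in limma's test, the smallest being 0.20. Replicate 3 of undifferentiated WT decided this count. Without that library, a choice made after seeing the data, HBA1 was higher in HBBko by 0.52, HBA2 by 0.55 and HBM by 0.49, with limma's Benjamini-Hochberg adjusted p of 4.5e-04, 6.4e-04 and 0.0025. HBQ1 and AHSP then differed by 0.10 and 0.02 and were not called. Without replicate 2 of undifferentiated WT instead, HBQ1 was lower in HBBko by 0.40 on the log2 scale (limma's adjusted p = 0.020). Beside these values, 9 of the 10 erythroid markers were called lower in undifferentiated HBBko cells, and their part in the result was not tested.

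After 48 h none of the 5 members was called, beside 18.7% of all tested genes. All 5 differences were below 0: -0.13 for HBA1, -0.13 for HBA2, -0.21 for HBM, -0.15 for HBQ1 and -0.10 for AHSP on the log2 scale, with no unadjusted limma p under 0.05. Beside these values, 4 of the 10 erythroid markers were called lower in HBBko and none higher. The markers had a median of -0.30 beside 0.02 over all tested genes, and their part in the result was not tested. For HBQ1 the lines did not overlap, at 103 ± 3.50 in WT and 92.8 ± 5.08 in HBBko (SD, n = 3). In a limma fit of only these 2 groups HBQ1 was called, at -0.15 with an adjusted p of 0.043. After rescaling to equal sums the values of HBA1, HBA2 and AHSP turned to 0.011, 0.0099 and 0.043, while the median of all genes moved from 0.02 to 0.14 and the share of calls that were higher from 50.8% to 84.2%. Relative to that median they were -0.13, -0.13 and -0.10.

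At 5 d 3 of the 5 members were called, beside 51.3% of all tested genes, so the share called was near that of the table as a whole. HBM was higher in HBBko by 0.58 (SE 0.18, limma's adjusted p = 0.012) and AHSP by 0.30 (SE 0.10, adjusted p = 0.017). HBQ1 was lower, at -0.40 (SE 0.16, limma's adjusted p = 0.039). Relative to WT the group means were 1.49 times for HBM, 1.23 times for AHSP and 0.754 times for HBQ1. HBA1, at 0.08 (SE 0.18), and HBA2, at 0.13 (SE 0.18), were not called although their libraries did not overlap, with limma's adjusted p of 0.74 and 0.58. All SE and p in this fit rest on a spread pooled over the 6 groups, not on the 5 d libraries alone. For HBA1 the SD was 1.64% of the mean in WT and 1.73% in HBBko at 5 d, but 40.4% in undifferentiated WT. In a limma fit of only the 5 d libraries HBA1 and HBA2 were not called either. Of the 10 erythroid markers, 1 was called higher and 3 lower at this stage.

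Leaving out single libraries of the 2 groups kept the call of HBM at 5 d in all 6 cases, with limma's adjusted p between 0.020 and 0.043. AHSP lost its call without HBBko replicate 3, at 0.26 with an adjusted p of 0.068. HBQ1 lost it without any 1 of the 6 libraries, with adjusted p between 0.053 and 0.10 and differences between -0.44 and -0.37. In a limma fit of only the 6 libraries at 5 d the adjusted p was 4.0e-04 for HBM, 4.7e-04 for HBQ1 and 0.0034 for AHSP. Without the filter on low values, where every gene above 0 in at least 1 library was tested, HBM kept its call (limma's adjusted p = 0.045) and AHSP (0.053) and HBQ1 (0.11) lost theirs.

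The scale of the values bore on the 5 d comparison. Globins took 50.5% to 52.1% of the summed signal in WT libraries and 38.7% to 39.9% in HBBko libraries at 5 d, so rescaling to equal sums moved the median difference over all genes from 0.02 to 0.27 on the log2 scale. At the same time the share of calls that were higher went from 51.7% to 86.1%. On that scale HBA1 was called at 0.42 and HBA2 at 0.47 (limma's adjusted p 0.018 and 0.011), HBM was at 0.91 and AHSP at 0.64. HBQ1 was at -0.07 and not called (limma's adjusted p = 0.69). Relative to the shifted median the 5 values were 0.15 for HBA1, 0.20 for HBA2, 0.64 for HBM, -0.34 for HBQ1 and 0.37 for AHSP. As shares of the summed signal, HBA1 and HBA2 together made up 20.9% ± 0.20 in WT and 28.4% ± 0.25 in HBBko at 5 d (SD, n = 3). In undifferentiated cells the shares were 0.867% ± 0.296 and 1.01% ± 0.067.

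**Figure D4:**
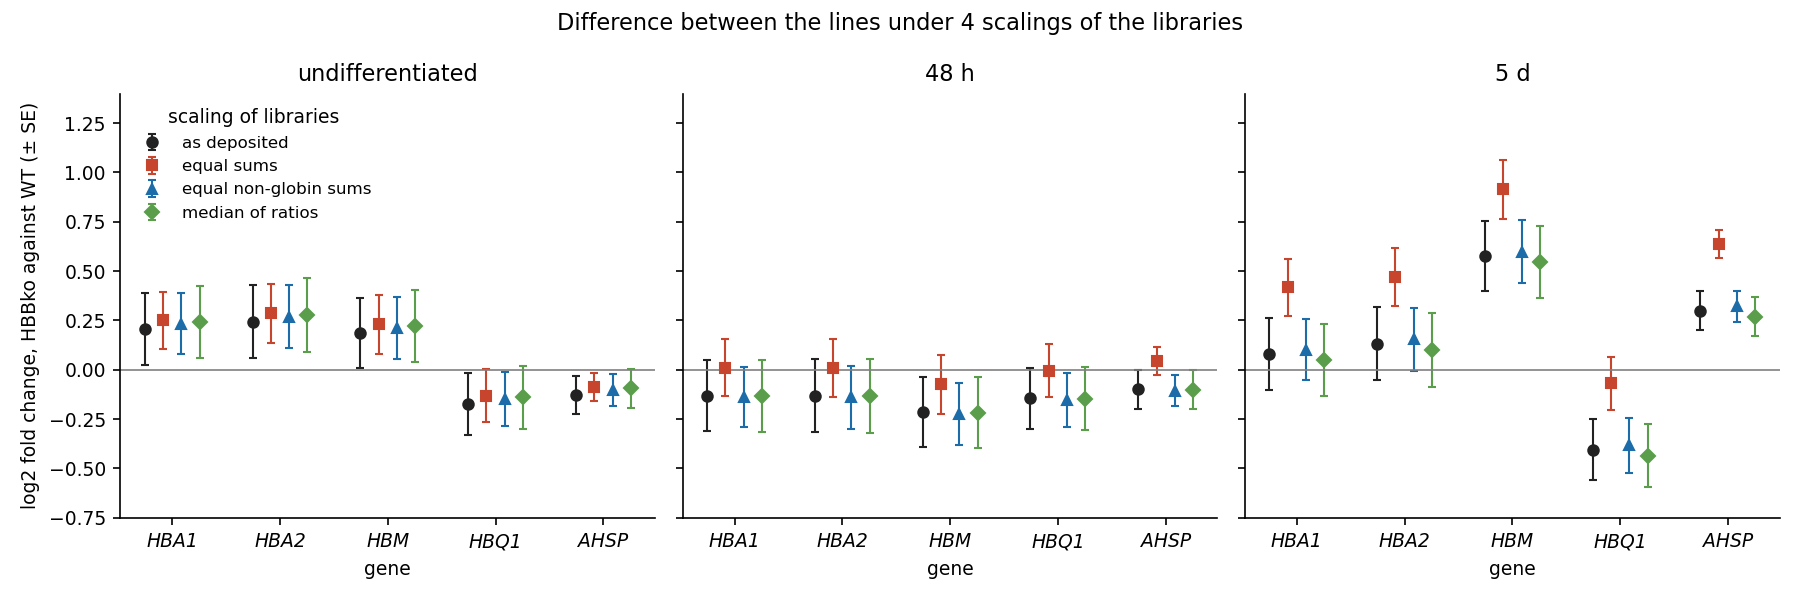
Log2 difference, HBBko minus WT, for HBA1, HBA2, HBM, HBQ1 and AHSP at each stage under 4 scalings of the libraries (as deposited, equal sums, equal sums of genes that are no globin, and median of ratios), with bars of 1 standard error from limma's fit. As deposited, HBM (0.58) and AHSP (0.30) lie above 0 and HBQ1 (-0.40) below it at 5 d, and equal sums lift all 5 genes there, HBQ1 to -0.07.

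The difference between stages was itself tested with interaction terms in limma. From 48 h to 5 d the HBBko minus WT difference grew by 0.79 for HBM (SE 0.25, Benjamini-Hochberg adjusted p = 0.030) and by 0.40 for AHSP (SE 0.14, adjusted p = 0.045). These were 2 of 5 members called, beside 24.6% of all tested genes. HBA1, HBA2 and HBQ1 gave 0.21, 0.26 and -0.26 and were not called. Over the 3 interactions 46.7% to 58.2% of all calls were higher as deposited and 80.9% to 84.2% after rescaling to equal sums. The HBM call depended on single libraries: in limma's test it was lost without HBBko replicates 1 or 2 at 48 h, HBBko replicates 2 or 3 at 5 d, WT replicate 3 at 48 h, or WT replicates 1 or 3 at 5 d. Over the 12 libraries left out in turn its adjusted p ran from 0.035 to 0.078. The AHSP call was kept only without WT replicate 1 at 48 h, and its adjusted p ran from 0.038 to 0.12. Without replicate 3 of undifferentiated WT, which enters this contrast only through the pooled spread, limma's adjusted p was 5.1e-04 for HBM and 0.0032 for AHSP. In a limma fit of only the 4 groups compared HBQ1 was called as well, at -0.26 with an adjusted p of 0.013. Without the filter on low values neither HBM nor AHSP was called (limma's adjusted p 0.096 and 0.12). Of the 10 erythroid markers, 3 were called higher and none lower in this interaction, with a median of 0.31 beside 0.0023 over all tested genes, and their part in the result was not tested.

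Between undifferentiated cells and 5 d AHSP was the 1 member called, at 0.43 (SE 0.14, limma's adjusted p = 0.019), beside 45% of all tested genes. Its call was kept without each of the 12 libraries in turn, with limma's adjusted p up to 0.04997, and was lost without the filter on low values (adjusted p = 0.058). Of the 10 erythroid markers, 6 were called higher and none lower in this interaction, with a median of 0.41 beside 0.02 over all tested genes, and their part was not tested either. Without replicate 3 of undifferentiated WT its value was 0.28 (adjusted p = 0.023), and limma also called HBA1 at -0.44, HBA2 at -0.42 and HBQ1 at -0.51. Without replicate 2 of undifferentiated WT, HBM was called at 0.62 (limma's adjusted p = 0.030). Between undifferentiated cells and 48 h no member was called, beside 13.2% of all tested genes, and none had an unadjusted limma p under 0.05. Without replicate 3 of undifferentiated WT, HBA1, HBA2 and HBM were called there at -0.65, -0.69 and -0.71.

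Ratios within a library do not depend on how libraries were scaled, and 7 of them were tested with exact permutation tests on log2 ratios, two-sided, with Benjamini-Hochberg adjustment over 21 tests. Lines were permuted within stages (8000 regroupings, smallest possible p 0.00025) and stages within lines (400 regroupings, smallest possible p 0.005). Within 1 stage 3 libraries against 3 cannot go below 0.1, so single-stage values are descriptions. Alpha-globin here means the sum of HBA1 and HBA2.

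The HBA2 to HBA1 ratio rose with differentiation in both lines. It was 0.683 ± 0.022 in WT and 0.701 ± 0.0061 in HBBko undifferentiated, 0.800 ± 0.014 and 0.800 ± 0.0068 at 48 h, and 0.910 ± 0.014 and 0.944 ± 0.010 at 5 d (SD, n = 3). No library of one stage overlapped another stage. The mean log2 difference was 0.21 in both steps, 48 h against undifferentiated and 5 d against 48 h (exact permutation p = 0.005 each, the smallest possible, adjusted p = 0.00875). Between lines the mean log2 difference was 0.03 (exact permutation p = 0.0378, adjusted p = 0.0566), which failed the adjustment. At 5 d the HBBko libraries, at 0.934 to 0.954, lay above the WT libraries, at 0.902 to 0.926. This ratio carries the assignment uncertainty described above.

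Alpha-globin signal was below that of the beta-like globins HBB, HBD, HBG1, HBG2 and HBE1 in WT and above it in HBBko. The ratio was 0.464, 0.407 and 0.463 in undifferentiated WT and 1.58, 1.44 and 1.60 in HBBko. At 48 h it was 0.810, 0.769 and 0.775 in WT and 2.82, 2.64 and 2.70 in HBBko, and at 5 d 0.702, 0.699 and 0.679 in WT and 2.89, 2.65 and 2.70 in HBBko. Every WT library was below 1 and every HBBko library above it. The mean log2 difference between lines was 1.86 (exact permutation p = 0.00025, the smallest possible, adjusted p = 0.0026). Most of the denominator was HBB, the disrupted gene, which the label check had already found lower in every HBBko library. This p-value therefore adds little to that check. The HBB signal left in HBBko, 70806 ± 1823 scaled TPM at 5 d (SD, n = 3), came from the disrupted gene and was counted in full. The ratio rose by 0.82 from undifferentiated to 48 h (exact permutation p = 0.005, adjusted p = 0.00875) and the step to 5 d gave -0.08 (p = 0.075, adjusted p = 0.105, by the same exact test). That mean joins -0.18 in WT, where every 5 d library lay below every 48 h library, and 0.01 in HBBko, where the stages overlapped.

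The denominator holds the targeted gene, so the ratio was also taken without HBB. It was then 31.8 ± 5.27 in WT and 21.6 ± 1.65 in HBBko undifferentiated, 37.6 ± 3.66 and 12.1 ± 0.535 at 48 h, and 61.1 ± 12.4 and 6.68 ± 0.694 at 5 d (SD, n = 3). HBBko lay below WT without overlap at each stage, with log2 differences of -0.55, -1.63 and -3.18, and the mean difference over stages was -1.79 (exact permutation p = 0.00025, adjusted p = 0.0026). Alpha-globin relative to all genes that are no globin was 0.429 ± 0.010 in WT and 0.468 ± 0.0082 in HBBko at 5 d, and over the 3 stages that ratio gave a mean log2 difference of 0.08 (exact permutation p = 0.46, adjusted p = 0.54). In the denominator the gamma-globin gene HBG2 stood at 3320 to 5582 scaled TPM in WT and 39927 to 49323 in HBBko at 5 d.

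**Figure D5:**
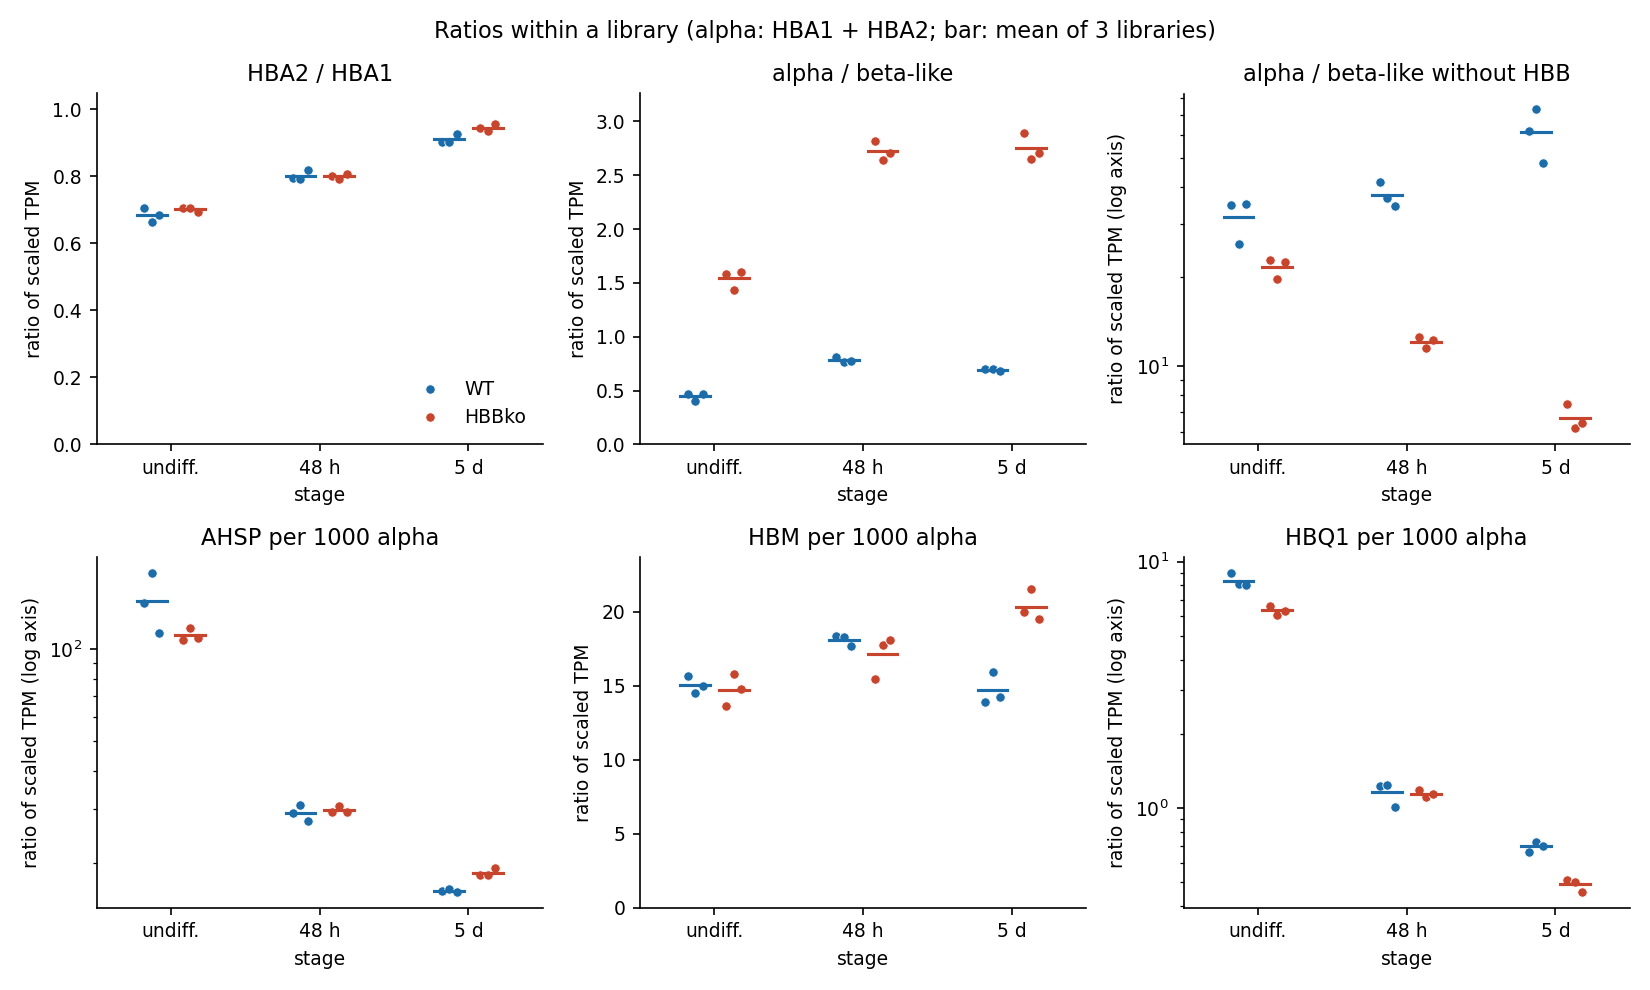
Ratios within each of the 18 libraries by stage and line, with bars at group means: HBA2 to HBA1, alpha-globin (HBA1 plus HBA2) to beta-like globin with and without HBB, and AHSP, HBM and HBQ1 per 1000 alpha-globin (3 panels have log axes). The alpha-globin to beta-like globin ratio lies between 0.407 and 0.810 in WT and between 1.44 and 2.89 in HBBko, while AHSP per 1000 alpha-globin falls from 107 or more undifferentiated to 19.2 or less at 5 d.

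AHSP signal, in RNA and not in protein, fell relative to the summed RNA signal of HBA1 and HBA2, although its own level rose. Per 1000 alpha-globin it was 144 ± 32.4 in WT and 111 ± 5.46 in HBBko undifferentiated, 29.1 ± 1.69 and 29.8 ± 0.848 at 48 h, and 16.2 ± 0.169 and 18.6 ± 0.581 at 5 d (SD, n = 3). The stages did not overlap. The log2 change was -2.09 to 48 h and -0.76 from 48 h to 5 d (exact permutation p = 0.005 each, adjusted p = 0.00875). Over all stages the lines gave a mean log2 difference of -0.04 (exact permutation p = 0.67, adjusted p = 0.74). At 5 d alone HBBko lay above WT without overlap, at 18.2 to 19.2 against 16.1 to 16.4, a log2 difference of 0.19. In undifferentiated cells the log2 difference was -0.35 and the lines overlapped.

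Set against alpha-globin, HBM in WT was highest at 48 h, where no library overlapped another stage, and was similar undifferentiated and at 5 d. Per 1000 alpha-globin it was 15.1 ± 0.563 undifferentiated, 18.1 ± 0.383 at 48 h and 14.7 ± 1.09 at 5 d in WT, and 14.7 ± 1.07, 17.1 ± 1.46 and 20.4 ± 1.07 in HBBko (SD, n = 3). The lines overlapped at the first 2 stages and separated at 5 d, by 0.47 on the log2 scale. Over all stages the line difference was 0.12 (exact permutation p = 0.14, adjusted p = 0.17). From undifferentiated to 48 h the ratio rose by 0.24 (exact permutation p = 0.01, adjusted p = 0.016), and the step to 5 d, which was negative in WT and positive in HBBko, averaged -0.03 (p = 0.8 by the same exact test).

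HBQ1 fell furthest of the 3 genes set against alpha-globin. Per 1000 alpha-globin it was 8.36 ± 0.547 in WT and 6.34 ± 0.263 in HBBko undifferentiated, 1.16 ± 0.128 and 1.14 ± 0.042 at 48 h, and 0.699 ± 0.033 and 0.491 ± 0.029 at 5 d (SD, n = 3). HBBko lay below WT without overlap undifferentiated and at 5 d, and the lines overlapped at 48 h. The mean line difference was -0.31 on the log2 scale (exact permutation p = 0.0025, adjusted p = 0.00875) and was kept without each of the 18 libraries in turn. An exact sign-flip permutation test of differences paired by replicate number gave it an adjusted p of 0.0505. Stage ratios tested on 6 pairs, whose smallest possible p is 0.03125, had the same adjusted p. The value is shared through the adjustment, so it cannot show whether pairing weakened the line difference. HBQ1 per 1000 alpha-globin changed by -2.66 to 48 h and by -0.97 from 48 h to 5 d (exact permutation p = 0.005 each, adjusted p = 0.00875).

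The authors' deposited tables, 1 per stage, give their own log2 fold changes for the same libraries. At 5 d the authors' deposited table lists HBM at 0.57 (SE 0.065, q = 3.1e-17). For HBQ1 the authors' deposited table at 5 d has -0.42 (q = 9.3e-12) and for AHSP 0.28 (q = 1.8e-09). HBA1 and HBA2 stand at 0.07 and 0.12 in the authors' deposited table at 5 d, with q of 0.61 and 0.32. At 48 h HBQ1 is the 1 member with a q under 0.05 in the authors' deposited table, at -0.16 (SE 0.052, q = 0.0083), and HBA1 has a fold change of -0.15 without an SE or a q. In undifferentiated cells the q values of the 5 members in the authors' deposited table run from 0.62 to 0.76.

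Other genes of the alpha-globin system were read as 3 lists. Of 14 neighbours of the alpha-globin cluster, 13 were tested, and in HBBko 5 were called higher and 2 lower undifferentiated, 4 and 2 at 48 h, and 7 and 4 at 5 d. Over all tested genes 20.9% were called higher and 22.3% lower undifferentiated, 9.52% and 9.21% at 48 h, and 26.5% and 24.8% at 5 d. The median log2 difference of the neighbours at 5 d was 0.30, beside 0.02 over all tested genes. HBZ, in the same cluster, was higher by 1.16, 1.43 and 3.19 at the 3 stages (SE 0.15 each), reaching 173 ± 40.0 in HBBko against 17.8 ± 1.67 scaled TPM in WT at 5 d (SD, n = 3). NPRL3, whose introns hold the remote enhancers of the cluster, was lower in HBBko, at -0.17, -0.39 and -0.35. POLR3K was higher by 0.65 and 0.41 at the first 2 stages, LUC7L by 0.49 undifferentiated, and SNRNP25 and MPG by 0.77 and 0.58 at 5 d.

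Of 22 factors known to act on alpha-globin or AHSP transcription or mRNA, all tested, 3 were called higher and 7 lower in undifferentiated HBBko cells, 2 and 3 at 48 h, and 9 and 9 at 5 d. The median log2 difference was -0.01, -0.08 and 0.03, beside -0.01, 0.02 and 0.02 over all tested genes. The shares of all tested genes called higher and lower were 20.9% and 22.3% undifferentiated, 9.52% and 9.21% at 48 h, and 26.5% and 24.8% at 5 d. KLF1, an erythroid activator of globin genes and of AHSP, was lower, at -0.54, -0.46 and -0.39 at the 3 stages, and its relative KLF3, a repressor, at -0.64, -0.48 and -0.46. MAFK, the partner of NF-E2 and BACH1, was higher by 0.59 undifferentiated and lower, at -0.64 at 5 d. RUNX1T1, a corepressor, was higher by 0.59 at 48 h and 2.27 at 5 d, where it stood at 14.3 ± 2.35 against 2.16 ± 0.152 scaled TPM in WT (SD, n = 3). KDM6B, a histone demethylase, was lower, at -0.98 at 5 d.

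The list headed handling of free alpha-globin held 26 genes, all tested. It joins proteolysis, autophagy, redox, heme and stress genes, not all of which act on the chain itself. In HBBko 9 were called higher and 12 lower undifferentiated, 6 and 6 at 48 h, and 9 and 9 at 5 d. Of all tested genes, 20.9% were called higher and 22.3% lower undifferentiated, 9.52% and 9.21% at 48 h, and 26.5% and 24.8% at 5 d. Median log2 differences of the list were -0.10, -0.04 and 0.04, beside -0.01, 0.02 and 0.02 over all tested genes. HMOX1, heme oxygenase, was higher by 1.22 at 48 h and lower, at -2.81 at 5 d, where it stood at 13.1 ± 2.43 in HBBko against 98.1 ± 17.2 scaled TPM in WT (SD, n = 3). DDIT3, a stress-induced factor, was lower, at -1.13, -0.63 and -1.33 at the 3 stages. ATF4 was lower, at -0.97 undifferentiated and -0.56 at 48 h and was not called at 5 d. HSPA1A, a heat shock chaperone, was higher by 1.10 undifferentiated, and GPX1, glutathione peroxidase, by 0.82 at 5 d.

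The genes most like each member over the 18 libraries were sought by Pearson's r of log2(scaled TPM + 1) among 8193 candidates. All values share the 6 groups, which fix much of any such likeness, and they are descriptions. HBA1 was closest to SLC22A4 (r = 0.995), RIPOR3 and ACHE, HBA2 to SLC22A4, ASAP1 and ACHE, and HBM to ACHE (r = 0.994), ASAP1 and RIPOR3. HBQ1 was closest to TK1, a thymidine kinase (r = 0.993), then GFI1B (r = 0.988), an erythroid repressor, and CCS (r = 0.986). AHSP was closest to B4GALT5 (r = 0.997), SELENBP1 and DCAF11. Between 198 and 327 candidates per member had r of at least 0.95. Among the members r was 0.998 between HBM and HBA1, 0.988 between AHSP and HBA1, and 0.934 to 0.9502 between HBQ1 and the others.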

How the data were processed

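RNA-seq of 18 libraries was analysed from the files the authors deposited. The labels name an RNeasy extraction and TruSeq libraries, and kallisto, sleuth and the build hg38 come from the submitters' processing notes. Versions and transcript annotation are not given in the sources used here. The deposited expression table holds a signal for each gene symbol and is titled TPM. Its sums differ between libraries, so the authors had scaled it in a step not given in the sources used here. Per the file headers, 3 further tables by the authors hold a log2 fold change, its standard error, a p-value and a q-value per gene. Columns name the lines as thal and wen, which were read as HBBko and WT from the names alone.

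A gene was tested if 3 or more libraries reached 1 scaled TPM (12005 of 35616). limma 3.58.1 in R 4.3.3 (lmFit, eBayes with trend) was run on log2(scaled TPM + 1), 18 libraries in 1 model, 12 residual degrees of freedom, two-sided, Benjamini-Hochberg over all tested genes, called under 0.05. A fold change on this scale understates changes of low genes. Adding 1 matters little for the members, whose lowest value was 41.5 scaled TPM (HBQ1). Ratios were tested by exact permutation (Python 3.11.15, numpy 2.4.6, scipy 1.17.1). Code was tested on simulated data. The design took the table for normalized values in general, and the planned test was kept. Alternatives were pseudocounts, the filter, 3 scalings, library weights, a fit of only the groups compared, a replicate block and single libraries left out.

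The named genes are the 5 members, HBB and the other beta-like globins, HBZ, for each list the 3 called genes with the largest change per line comparison plus HBZ and NPRL3, and the 3 genes most like each member with a group mean of at least 10. KLF1, ATF4 and others are also given at stages where they did not lead. The members and lists were chosen with earlier results of these data known. Same-numbered libraries of the 2 lines correlated at -0.03 to 0.18 after group means were removed (6 of 9 pairs over 0.1: every pair undifferentiated and at 5 d, none at 48 h). The labels do not tie the numbers to a shared culture or day, and the fits paired by number are given as alternatives. Locations and the promoter came from RefSeq and transcripts from GENCODE, both on the assembly the notes name.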

Additional observations from a re-analysis of the deposited data

Results flagged for a closer look

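For 2 members the HBBko minus WT difference itself differed between stages in limma's test of the interaction. For HBM it was 0.79 larger at 5 d than at 48 h on the log2 scale (limma's Benjamini-Hochberg adjusted p = 0.030): all 3 HBBko libraries were above all 3 WT libraries at 5 d, and the lines overlapped at 48 h. For AHSP it was 0.40 larger at 5 d than at 48 h (adjusted p = 0.045) and 0.43 larger at 5 d than in undifferentiated cells (adjusted p = 0.019). Of the 12 libraries left out in turn, HBM kept its call in 5 and AHSP its 48 h to 5 d call in 1. Median-of-ratios scaling left 1 of the 2 calls between 48 h and 5 d. Without the filter on low values HBM and AHSP lost all 3 calls, with limma's adjusted p of 0.096 for HBM and 0.12 and 0.058 for AHSP. Of the 10 erythroid markers, 3 were called higher and none lower from 48 h to 5 d, and 6 higher and none lower from undifferentiated to 5 d. Of all tested genes, 24.6% and 45% were called in either direction in these 2 interactions. The part of the markers in the result was not tested.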

How the results depend on the processing

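The 6 stage comparisons called all 5 members under every alternative run. For HBBko against WT the number of members called, 0 undifferentiated, became 2 with library weights and 0 to 3 with single libraries left out, and 3 without WT undifferentiated replicate 3 (chosen after seeing the data). At 48 h, 0 became 1 in a fit of only the groups compared. At 5 d, 3 became 1 without the filter, 4, all higher, with equal sums, and 1 to 2 with single libraries left out. The interactions gave 1 with library weights, 0 to 3 with libraries left out and 3 without that WT replicate for 48 h minus undifferentiated; 0 without the filter, 1 with median-of-ratios scaling, 3 in a fit of only the groups compared and 0 to 2 with libraries left out for 5 d minus 48 h; and 0 without the filter, 2 with equal sums, 1 to 4 with libraries left out and 4 without that replicate for 5 d minus undifferentiated.

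Values that were not called changed sign as follows. Undifferentiated, leaving libraries out took HBM from -0.039 to 0.49, HBQ1 from -0.40 to 0.10 and AHSP from -0.23 to 0.018, and library weights gave AHSP 0.0019. At 48 h equal sums gave 0.011 for HBA1, 0.0099 for HBA2 and 0.043 for AHSP. In the interaction of 48 h minus undifferentiated, the non-globin sums, median-of-ratios scaling and library weights gave -0.0048, -0.0076 and -0.070 for HBQ1 and -0.0037, -0.0069 and -0.046 for AHSP. Libraries left out gave HBQ1 -0.25 to 0.25 and AHSP -0.12 to 0.13. For 5 d minus undifferentiated, equal sums gave 0.17 for HBA1, 0.18 for HBA2 and 0.064 for HBQ1, and libraries left out -0.44 to 0.067 and -0.42 to 0.11 for the first 2. The cause was not tested.

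Of the ratios, the line difference of HBA2 to HBA1 ran from 0.022 to 0.037 with single libraries left out (called in 4 of 18) and was 0.017 and called on the linear scale. AHSP per 1000 alpha-globin ran from -0.096 to 0.013. The result for alpha-globin to beta-like globin without HBB, 5 d against 48 h, was -0.09 on the log2 scale. On the linear scale it was 9.06, with the opposite sign. The log2 mean joins opposite changes, 0.68 in WT and -0.86 in HBBko.

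With the replicate number as a block the member counts of the line comparisons and interactions kept their values, with the same members called. Exact permutation by sign flips of 6 pairs (smallest possible p 0.03125) gave an adjusted p of 0.0505 for each stage ratio that had been called (0.21, 0.82, -2.09, 0.24, -2.66 and 3.61 to 48 h; 0.21, -0.76, -0.97 and 1.97 to 5 d). HBQ1 per 1000 alpha-globin, -0.31 between lines over 9 pairs (smallest possible p 0.0039), had an adjusted p of 0.0505 in the exact sign-flip test. It shares this value with those stage ratios through the adjustment. Of 18 libraries, 14 correlated best with their own number in the other line, a hint from the data and not from the design. Depth is unknown, so no counting limit can be given.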
